A study of Homo sapiens with 15 samples.

Results

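Ov4Carbo4, a line grown from 1 cell of a carboplatin-resistant ovarian cancer population, was compared with that population, Ov4Carbo, across all genes. The 3 samples of each line were taken by the cell line given in their labels, and together they make up 6 of the 15 RNA samples of the study. The study began from OVCAR4, a cell line in long use as a model of serous ovarian carcinoma of high grade. Ov4Carbo and Ov4Cis were made from it by culture in rising concentrations of carboplatin or cisplatin, and Ov4Carbo4 and Ov4Carbo7 each descend from a single cell of Ov4Carbo. Both lines compared here are labelled carboplatin resistant, were grown in DMEM with serum and antibiotics, and therefore share the drug selection that separates them from the parental line, labelled Ovcar4Parental. Ov4Carbo4 is a single clone, so its 3 samples show the spread between cultures of that clone and not between clones. The design text calls the replicates biological.

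Carboplatin forms adducts and crosslinks in DNA, and cells that survive long exposure are a mixture of lineages that differ in their genomes, their drug handling and their signalling state. A clone carries one such lineage, while the population value for each gene is an average over many. In bulk RNA, fewer cells with a transcript and less of it per cell cannot be told apart, so a lower clone value can mean either that all cells of the clone have less of it than the average cell or that it came from other cells of the population.

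PolyA RNA had been measured by sequencing, and each of 16604 genes has a value in log2 RPKM, a read density corrected for gene length and library size, after conditional quantile normalization. All 6 samples had a median of 2.77, and 13643 to 13708 genes lay above log2 RPKM 0. The table gives no counts or read totals, and with depth unknown the precision of a value can be judged from replicate spread only. The labelled tumour type was checked against 13 markers of the ovarian serous lineage, of which 12 were measured and 9 stood above log2 RPKM 1 in both lines. PAX8, the Müllerian lineage factor, stood at 5.85 in Ov4Carbo4 and 5.96 in Ov4Carbo, and EPCAM, an epithelial adhesion molecule, at 5.23 and 5.32. WT1 was near the floor in both, at -2.27 and -2.69. Of the markers of other cell types, 4 of 8 for fibroblasts, 2 of 8 for leukocytes and 3 of 6 for endothelium were measured. Their summed RPKM ran from 11.5 to 14.6 in Ov4Carbo4 and from 6.01 to 7.54 in Ov4Carbo for fibroblasts, from 0.714 to 1.18 and from 0.67 to 0.969 for leukocytes, and from 21.8 to 26.6 and from 5.36 to 7.27 for endothelium. The last difference was that of CDH5, the vascular cadherin, the only endothelial marker called, while the defining markers PECAM1, TEK and EMCN were not among the genes measured.

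The 3 Ov4Carbo4 samples were alike, and the 3 Ov4Carbo samples were less so. The root-mean-square difference over all genes was 0.319 to 0.355 log2 units between Ov4Carbo4 replicates, 0.572 to 0.772 between Ov4Carbo replicates and 0.969 to 1.09 between the lines. Replicate 1 of Ov4Carbo stood apart from replicates 2 and 3, by 0.772 and 0.716. The numbers in its sample title fall in the same series as those of Ov4Carbo4 and Ov4Carbo7, and those of replicates 2 and 3 in the other series. The labels do not call the series a batch. Results below are therefore also given against replicate 1 alone, which is the comparison within 1 title series, and without it.

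Genes are counted as changed, or called, where limma gave a difference of 1 log2 unit or more in either direction with an adjusted p under 0.05. Each SE and p from limma uses 1 spread per gene, shared by all 5 lines. Ov4Carbo replicates were more spread than those of Ov4Carbo4, so an SE can be too small for the population. Of the 16604 genes, 2360 were called (14.2%), 1258 of them higher (7.58%) and 1102 lower (6.64%) in Ov4Carbo4. The 3 values of one line lay wholly above or below the 3 of the other for 8231 genes (49.6%) and for 2272 of the called genes. Low values made up many of the calls, as 759 called genes had a higher mean under log2 RPKM 0, and 1246 had one of at least 1. Of the 2360 called genes, 1690 were also called in the same direction against replicate 1 alone, 2100 without replicate 1, and 1461 in both. Against replicate 1 alone, 7 had the opposite sign. The fit against replicate 1 alone holds only the 7 samples of that title series, and the single Ov4Carbo sample has no spread of its own: it is assumed to vary like the replicates of Ov4Carbo4 and Ov4Carbo7. Changed genes given below with their sample values were chosen to have a higher mean of at least log2 RPKM 1 and no overlap between the lines, so their separation is a property of the choice. Genes that are only listed were called, and those whose mean was under log2 RPKM 1 in both lines are pointed out. Of the listed genes PTGS2, FZD1, BHLHE41, GADD45A and PHLDA3 had values that overlapped between the lines.

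The 12 genes that rose most in Ov4Carbo4 included receptors, adhesion and cytoskeletal proteins, enzymes and a homeobox factor. ACKR3, a scavenging receptor for the chemokine CXCL12, stood at 3.84, 3.53 and 3.52 log2 RPKM in the clone and at -0.75, -0.20 and -0.66 in the population, a log2 difference of 4.17 (limma SE 0.27, adjusted p = 5.97e-07). F2R, the thrombin receptor PAR1, stood at 4.66, 4.67 and 4.53 against 2.04, 1.10 and 1.50, a rise of 3.08 (SE 0.19, adjusted p = 4.07e-07). The lowest clone value of each gene was thus more than 2 log2 units above the highest population value. MSX2, a homeobox factor downstream of BMP signals, had 6.66, 6.23 and 6.37 in the clone and 3.89, 3.60 and 3.49 in the population, a rise of 2.76 (SE 0.15, adjusted p = 1.63e-07). NES, which encodes the intermediate filament nestin, had 6.44, 6.23 and 6.53 against 3.95, 3.67 and 2.92, a rise of 2.89 (SE 0.28, adjusted p = 1.12e-05). IQGAP2, a scaffold protein of the actin cytoskeleton, had 4.92, 5.02 and 4.87 against 1.76, 1.84 and 1.39, a rise of 3.27 (SE 0.23, adjusted p = 1.04e-06). For all 3 genes the clone replicates differed by less than 0.5 log2 units, a spread well inside the change.

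The other genes among the 12 largest rises were GJA4, a gap junction connexin, ITIH5, a hyaluronan-associated inhibitor family member, TNFRSF19, a TNF receptor family member, TMTC1, a mannosyltransferase of cadherins, FAT3, an atypical cadherin, KCNH3, a potassium channel, and CHST2, a sulfotransferase. GJA4 was the least even, with 4.37, 2.72 and 3.69 log2 RPKM in the clone and 0.13, -3.17 and -3.49 in the population. Replicate 1 of Ov4Carbo was its highest population value, and its log2 fold change was 3.47 against that replicate alone and 6.92 without it. FAT3 stood at 3.19, 2.75 and 3.19 in the clone, close to the parental mean of 3.25, and at -1.30, -1.80 and -2.10 in the population. For the other 11 genes the clone mean was at least 1 log2 unit above the parental mean as well, so the level in Ov4Carbo4 was higher than in either the starting line or the selected population.

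Among the genes that fell most, several were high in the population and near the floor in the clone. PTPRM, a receptor tyrosine phosphatase that joins like molecules on neighbouring cells, stood at 0.66, 0.90 and 0.81 log2 RPKM in Ov4Carbo4 and at 6.82, 6.68 and 6.63 in Ov4Carbo, a log2 difference of -5.92 (limma SE 0.10, adjusted p = 1.52e-12). Its mean was 5.89 in the parental line, 6.82 in Ov4Carbo7 and 6.25 in Ov4Cis, so Ov4Carbo4 was low and all other lines of the study were high. COL11A1, a fibrillar collagen chain, stood at -4.47, -5.84 and -4.58 against 4.31, 4.12 and 4.98, with a parental mean of 2.38. BCHE, which encodes butyrylcholinesterase, stood at -2.11, -2.66 and -3.02 against 4.01, 3.87 and 4.47, a log2 difference of -6.71 (limma SE 0.25, adjusted p = 8.36e-09). The clone was thus near the floor for both genes in all 3 samples, where the size of a fold change depends on the offset of the log scale. On the log2(RPKM + 1) scale the differences were -4.49 for COL11A1 and -3.97 for BCHE.

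A group of these genes was high in the selected population and low in both the parental line and the clone. SST, the peptide hormone somatostatin, stood at 7.79, 9.62 and 8.19 in Ov4Carbo and at 0.08, 0.03 and 0.46 in Ov4Carbo4, while its parental mean was -3.23. ALDH1A1, a retinaldehyde dehydrogenase often used as a marker of stem-like tumour cells, stood at 4.47, 5.33 and 4.72 in the population and at -1.03, -1.26 and -0.84 in the clone, a log2 difference of -5.88 (limma SE 0.46, adjusted p = 2.09e-06), with a parental mean of -0.58. ST3GAL4, a sialyltransferase, stood at 6.02, 6.88 and 7.48 in the population and at 2.96, 2.95 and 2.83 in the clone, beside a parental mean of 3.03. Ov4Carbo7 had means of 5.45 for SST, 3.87 for ALDH1A1 and 6.18 for ST3GAL4. For these 3 genes the clone Ov4Carbo4 lay near or above the starting line and well below both other carboplatin-derived lines.

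The remaining large falls were in genes that the parental line also expressed. NUPR1, a small chromatin protein induced by stress, stood at 1.52, 2.65 and 1.16 in the clone and 6.33, 7.78 and 7.86 in the population, a log2 difference of -5.55 (limma SE 0.66, adjusted p = 5.1e-05). MGST1, a membrane-bound glutathione transferase, stood at 1.16, 0.82 and 0.98 against 5.46, 5.41 and 4.92, a log2 difference of -4.28 (limma SE 0.16, adjusted p = 8.36e-09). NNMT, which methylates nicotinamide, stood at 0.74, 0.27 and 0.19 against 5.10, 4.63 and 4.89, and CP, the copper carrier ceruloplasmin, at 1.22, 1.08 and 0.96 against 6.02, 5.03 and 4.63. Parental means were 5.08 for NUPR1, 4.38 for MGST1, 5.98 for NNMT and 4.82 for CP, all above every clone value. All 24 genes with the largest change, 12 in each direction, were also called in the same direction without replicate 1 of Ov4Carbo.

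**Figure D1:**
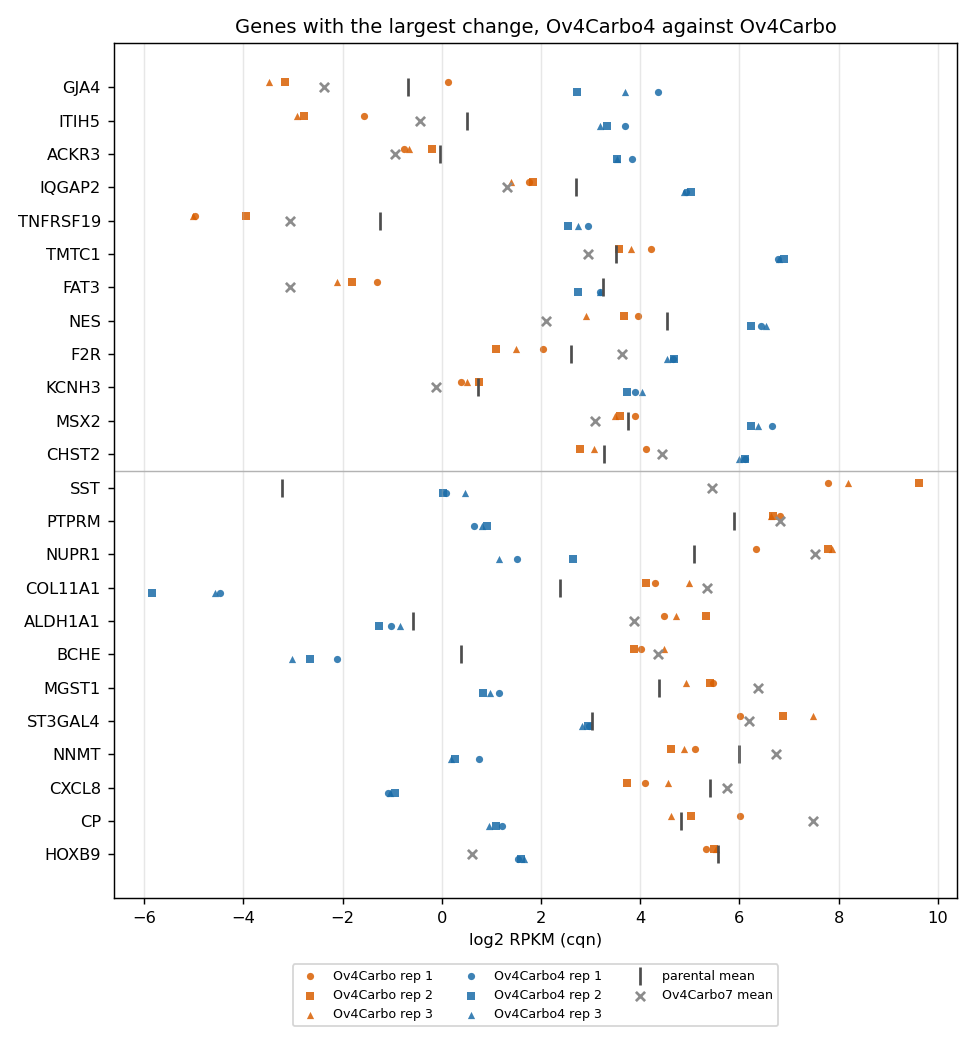
Log2 RPKM on the horizontal axis for the 12 genes that rose most and the 12 that fell most in Ov4Carbo4 against Ov4Carbo, with 1 point per replicate of both lines and marks for the parental and Ov4Carbo7 means. The blue points of Ov4Carbo4 lie close together and apart from the orange Ov4Carbo points, as in PTPRM, where the clone stood between 0.66 and 0.90 and the population between 6.63 and 6.82.

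Inflammatory chemokine and cytokine genes were lower in the clone. NF-kB is a family of transcription factors that is freed from its inhibitors when receptors for cytokines or danger signals are engaged, and it switches on chemokines, acute phase proteins and its own inhibitors. Of 37 measured genes of an NF-kB chemokine and cytokine list, 16 fell and 4 rose, with a median log2 fold change of -0.97, beside 6.64% lower, 7.58% higher and a median of 0.04 over all genes. Against replicate 1 alone 18 fell and 2 rose (median -1.11), and without it 14 fell and 5 rose (median -0.82). CXCL8, the neutrophil-attracting chemokine IL-8, stood at -1.09, -0.95 and -1.05 log2 RPKM in Ov4Carbo4 and at 4.09, 3.73 and 4.57 in Ov4Carbo, a log2 difference of -5.16 (limma SE 0.24, adjusted p = 3.18e-08). CXCL1, a chemokine for the same receptor family, stood at 1.20, 1.34 and 0.64 against 5.76, 4.42 and 4.82, a log2 difference of -3.94 (limma SE 0.38, adjusted p = 1.04e-05). The 2 chemokines had parental means of 5.41 and 5.17, so the clone was low against the starting line as well.

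LCN2, a siderophore-binding protein of the acute phase response, stood at -0.59, -0.10 and -0.55 in the clone and 6.07, 1.89 and 2.84 in the population. C3, the central complement component, stood at 3.11, 3.14 and 2.76 against 7.27, 5.17 and 5.40. In both genes replicate 1 was the highest population sample, and without it the log2 fold changes were -2.78 and -2.28 in place of -4.01 and -2.95. The other members that fell were the chemokines CXCL2, CXCL3, CXCL5 and CXCL6, the cytokines TNF, LTB, IL6, IL18 and CSF1, the NF-kB subunit gene NFKB2, the apoptosis inhibitor BIRC3 and the acute phase gene SAA1. CXCL1, CXCL2 and CXCL3 are closely similar genes, and how reads were divided among them is not given in the sources used here. The members that rose were IL1B, IL11, IL33 and PTGS2. Of these listed genes CXCL2, CXCL3, CXCL6, TNF, LTB, IL6, SAA1, IL1B, IL11 and PTGS2 had means under log2 RPKM 1 in both lines.

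The promoters of 3 of the chemokines that fell are shown because each carries a match to an NF-kB type sequence close to the start of the gene. They are the 250 bases before the start in RefSeq (GRCh38.p14), at chr4:73740319-73740568 on the plus strand for CXCL8, chr4:73869143-73869392 on the plus strand for CXCL1 and chr4:73998678-73998927 on the minus strand for CXCL5. Capitals mark the match to GGNATTTCC, where N is any base.
CXCL8: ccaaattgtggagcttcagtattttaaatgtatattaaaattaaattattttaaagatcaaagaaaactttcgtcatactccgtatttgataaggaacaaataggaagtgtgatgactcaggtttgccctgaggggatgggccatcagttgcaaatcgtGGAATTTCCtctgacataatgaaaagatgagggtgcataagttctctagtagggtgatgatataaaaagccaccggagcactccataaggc
CXCL1: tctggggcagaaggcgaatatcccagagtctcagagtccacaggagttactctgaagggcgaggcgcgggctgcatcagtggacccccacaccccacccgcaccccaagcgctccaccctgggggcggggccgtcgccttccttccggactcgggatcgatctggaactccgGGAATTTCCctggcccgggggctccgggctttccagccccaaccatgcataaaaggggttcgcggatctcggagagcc
CXCL5: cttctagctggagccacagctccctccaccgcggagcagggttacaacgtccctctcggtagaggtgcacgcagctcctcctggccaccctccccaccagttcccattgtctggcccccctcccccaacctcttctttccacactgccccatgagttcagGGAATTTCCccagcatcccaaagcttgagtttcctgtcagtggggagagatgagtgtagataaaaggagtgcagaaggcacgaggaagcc
The match began 91 bases before the start in CXCL8, 78 in CXCL1 and 90 in CXCL5. Both strands of the window from 250 bases before to 50 after the start were searched. A match was present in 394 of all 27305 promoters (1.44%) and in 147 of 11161 promoters of measured genes (1.32%). Of the listed NF-kB genes, 25 had a promoter and 11 of these held a match. Among members that fell 7 of 12 promoters held one, and among members not called 4 of 9, those of NFKB1, NFKBIA, TNFAIP3 and ICAM1. The list was written from genes known as NF-kB targets, so its share of matches is a property of the choice, and a match is a run of letters and no measure of binding.

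Interferon-stimulated genes, which restrain viruses and are induced through STAT and IRF factors, were lower in the clone, and the size of this rested on replicate 1 of the population. Of 50 measured members 15 fell (30%, beside 6.64% lower over all genes) and none rose by limma, with a median log2 fold change of -0.84. Against replicate 1 alone 42 fell (median -2.01), and without it 6 fell (median -0.33). No member had an adjusted p under 0.05 and a rise of 1 in any of these 3 fits. OAS1, a sensor that makes the second messenger of RNase L, stood at -0.12, 0.04 and -0.76 in the clone and 4.07, 1.12 and 0.73 in the population. Its log2 difference was -2.26 (limma SE 0.66, adjusted p = 0.0161), or -1.21 without replicate 1, and it was not called without Ov4Carbo4 replicate 3. IFI44, an interferon-induced cytoplasmic protein, stood at 0.64, 0.79 and 0.90 against 4.34, 2.01 and 1.71, a log2 fold change of -1.91 that became -1.08 without replicate 1. IFI27, a short interferon-induced protein, stood at 1.38, 1.40 and 1.16 against 5.68, 4.42 and 2.88. In all 3 genes the clone lay below every population sample and replicate 1 was the highest of those. Of 20 genes of MHC class I presentation limma called none, with 1 higher and 2 lower at an unadjusted p under 0.05. Over all 16604 genes 7015 passed the stricter adjusted p under 0.05. The median log2 fold change of the MHC list was -0.11, with -0.65 against replicate 1 alone and 0.19 without it.

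Genes of the ATF4 stress response fell with the opposite dependence. ATF4 is the transcription factor made when amino acids are short or the endoplasmic reticulum is stressed, and it drives amino acid transport and synthesis. Of 33 measured members 11 fell (33.3%, beside 6.64% lower over all genes) and none rose by limma, with a median log2 fold change of -0.49. Against replicate 1 alone 5 fell and 1 rose (median -0.08), and without it 15 fell and none rose (median -1.27). SLC7A11, the cystine importer, stood at 2.09, 2.55 and 1.68 in the clone and 4.85, 4.98 and 4.78 in the population, a log2 difference of -2.76 (limma SE 0.27, adjusted p = 1.27e-05) that was -2.74 against replicate 1 alone. TRIB3, a pseudokinase that restrains AKT and ATF4, stood at 3.07, 3.77 and 2.77 against 4.25, 6.03 and 7.16, a log2 difference of -2.61 (limma SE 0.71, adjusted p = 0.0109). Against replicate 1 alone it was -1.05 with an adjusted p of 0.062. STC2, a secreted glycoprotein of the stress response, stood at 2.92, 3.39 and 2.80 against 4.34, 5.96 and 6.22, and was called in both splits. ATF4 itself was not called.

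**Figure D2:**
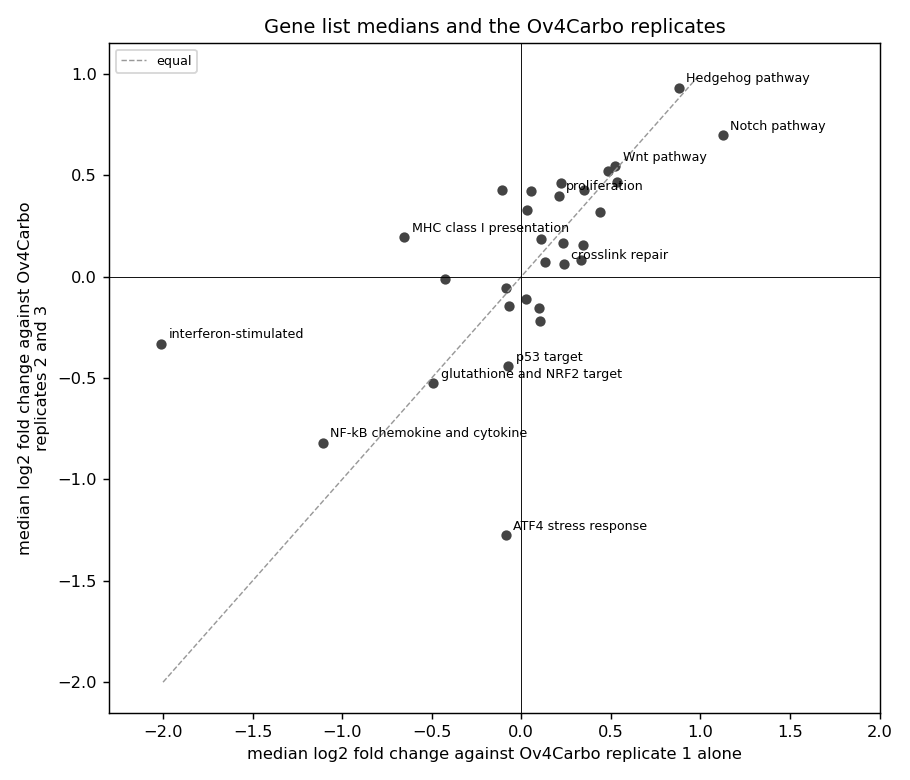
Each point is a gene list with at least 10 measured members (lists for other cell types and RNA quality are not drawn), placed by its median log2 fold change (Ov4Carbo4 minus Ov4Carbo) against Ov4Carbo replicate 1 alone on the horizontal axis and against replicates 2 and 3 on the vertical axis, with a dashed line of equality. The interferon-stimulated list lies left of the line at -2.01 and -0.33, and the ATF4 list below it at -0.08 and -1.27, while the NF-kB, glutathione and Wnt lists lie near the line.

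Some genes of a list of glutathione metabolism and the NRF2 antioxidant response fell in the clone, whichever population replicates were used. NRF2 is released from KEAP1 by electrophiles and raises enzymes that make and use glutathione, a peptide that can also bind platinum. Of 35 measured members 11 fell and none rose, with a median log2 fold change of -0.51, and the counts were the same against replicate 1 alone (median -0.49) and without it (median -0.52). GPX1, a peroxidase that uses glutathione, stood at 5.61, 5.19 and 5.26 in the clone and 6.92, 6.90 and 6.80 in the population, a log2 difference of -1.52 (limma SE 0.12, adjusted p = 1.98e-06). ME1, an NADPH-making malic enzyme, stood at 3.59, 3.73 and 3.45 against 5.22, 4.58 and 5.14, and SLC7A5, a transporter of large amino acids that the ATF4 list also holds, at 4.98, 5.20 and 4.94 against 6.10, 6.59 and 6.72. The others were SLC7A11, GGT1, GPX3, AKR1B1, the closely similar AKR1C1, AKR1C2 and AKR1C3, and the iron store FTH1. GGT1 and the AKR1C genes had means under log2 RPKM 1 in both lines. The other 24 members were not called, among them NFE2L2, which encodes NRF2. Of these, NQO1 (log2 fold change 0.09), HMOX1 (0.15), TXN (0.20) and SRXN1 (0.06) were near 0. GCLM (-0.28), GCLC (-0.40) and TXNRD1 (-0.63) were lower by less than the size required. The list as a whole therefore did not move as 1 group.

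Of 28 genes of platinum transport and conjugation 3 were called (10.7%), a share near the 14.2% of all genes. The copper transporter SLC31A2 rose, with means under log2 RPKM 1, and MGST1, among the largest falls above, and LRRC8D fell, and the list median was 0.02. LRRC8D, a subunit of volume-regulated channels through which platinum drugs can enter, stood at 2.63, 2.84 and 2.66 in the clone and 3.35, 4.53 and 4.75 in the population, a log2 difference of -1.50 (limma SE 0.29, adjusted p = 0.00158). Replicate 1 was its lowest population value, and against it alone the log2 fold change was -0.64 and not called. Of 53 genes of DNA crosslink repair limma called none, while 20 were higher and 6 lower at an unadjusted p under 0.05. Over all 16604 genes 7015 passed the stricter adjusted p under 0.05, so these counts do not set the list apart. The list median was 0.15 with all samples and 0.06 without replicate 1 of Ov4Carbo. DDB1, a damage sensor of nucleotide excision repair, stood at 6.97, 6.92 and 6.94 against 6.51, 6.14 and 6.46, and MSH6, a mismatch repair subunit, at 5.86, 5.80 and 5.92 against 5.72, 5.17 and 5.54. Their log2 fold changes were 0.57 (adjusted p = 0.0028) and 0.38 (adjusted p = 0.042), below the size required. Of 8 genes of a metallothionein list 2 rose and 1 fell. The list also holds MTF1 and SLC30A1, which are not metallothioneins and were not called. The metallothioneins themselves are near-identical metal-binding genes whose reads may be split. MT1F stood at 2.89, 2.00 and 2.72 against 1.58, 1.65 and 0.08, and was not called without Ov4Carbo replicate 3.

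Notch pathway genes were higher in the clone, with no member lower. Notch receptors are cut after they bind Jagged or Delta ligands on a neighbouring cell, and the freed fragment turns on HES and HEY repressors and the feedback gene NRARP. Of 28 measured members 12 rose (42.9%, beside 7.58% higher over all genes) and none fell by limma, with a median log2 fold change of 0.70. The median was 1.13 against replicate 1 alone, and 11 rose without replicate 1. The receptor NOTCH1 stood at 3.91, 3.72 and 4.15 in the clone and 2.55, 1.88 and 1.88 in the population, a rise of 1.82 (SE 0.23, limma adjusted p = 7.14e-05). NOTCH3, a second receptor, stood at 3.58, 3.75 and 3.39 against 0.84, 1.57 and 2.23, a rise of 2.02 (SE 0.29, adjusted p = 2.08e-04). The ligand JAG1 stood at 5.79, 5.36 and 5.84 against 3.96, 3.59 and 3.36, a rise of 2.02 (SE 0.39, adjusted p = 0.00143). Receptors and ligand were separated from the population in all samples. The target NRARP stood at 3.06, 2.92 and 3.18 against 1.10, 1.33 and 1.50, a rise of 1.74 (SE 0.15, adjusted p = 5.65e-06). The other members that rose were the ligands JAG2, DLL1 and DNER, the fringe enzymes LFNG and MFNG that modify the receptors, and the repressors HES2, HEY1 and HEYL, of which JAG2 and HEY1 alone reached a mean of log2 RPKM 1 in either line. HES1, a further target, had a log2 difference of 0.86 (adjusted p = 0.0906) and was not called.

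Hedgehog pathway genes rose as well, from lower levels. In this pathway the receptor PTCH1 holds back SMO until a ligand binds, and the GLI factors then raise PTCH1 itself. Of 15 measured members 7 rose and none fell by limma, also against replicate 1 alone and without it. The median log2 fold change was 1.32, 0.93 without replicate 1 and 0.80 without replicate 3. GLI2, the main activating factor, stood at 1.62, 1.08 and 1.58 in the clone and -2.47, -2.32 and -1.94 in the population, a rise of 3.68 (SE 0.25, limma adjusted p = 7.61e-07). PTCH1 stood at 2.22, 2.00 and 2.41 against 1.02, 0.47 and 0.80, a rise of 1.45 (SE 0.21, adjusted p = 2.2e-04). The co-receptor BOC stood at 2.70, 2.87 and 2.84 against 1.70, 1.55 and 1.19, while the co-receptor GAS1, at 3.18, 3.41 and 3.44 against 2.55, 2.55 and 0.83, was not called without Ov4Carbo replicate 3 (log2 fold change 0.79) or without Ov4Carbo4 replicate 2 or 3. HHIP and DISP2 also rose, with means under log2 RPKM 1 in both lines. The signal transducer SMO had a log2 difference of 0.42 (adjusted p = 0.00905), below the size required.

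Of 44 Wnt pathway genes 16 rose and 2 fell, with a median log2 fold change of 0.61, 15 and 4 against replicate 1 alone, and 15 and 2 without it. Those that rose included the ligands WNT2B, WNT6, WNT9A, WNT10B and WNT11, the receptors FZD1, FZD4 and FZD8, and the feedback genes AXIN2, NKD1 and NOTUM. WNT2B, WNT6, WNT9A, WNT11, FZD1, AXIN2 and NKD1 had means under log2 RPKM 1 in both lines. ROR2, a receptor kinase for WNT5A, stood at 3.41, 3.29 and 3.29 against 2.37, 2.33 and 1.66, and without Ov4Carbo replicate 3 the difference was 0.98. NOTUM, which inactivates Wnt ligands, was called only with all samples or without Ov4Carbo replicate 3, among the fits that leave out 1 sample. SHISA3, an inhibitor that retains Frizzled receptors in the cell, fell from 4.34, 4.94 and 4.63 in the population to 1.56, 0.85 and 1.40 in the clone, a log2 difference of -3.36 (limma SE 0.28, adjusted p = 3.19e-06). Its parental mean was -3.67, so the clone lay between the starting line and the population.

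Among genes of growth factor signalling, rises outnumbered falls. Of 48 genes of the TGF-beta and BMP pathways 11 rose and 2 fell (27.1% called, beside 14.2% of all genes, median 0.28). BMP4, a ligand, stood at 4.24, 4.28 and 4.18 in the clone and 2.06, 2.15 and 2.42 in the population, a rise of 2.02 (SE 0.22, limma adjusted p = 2.83e-05), and NOG, the secreted BMP antagonist noggin, at 2.25, 1.49 and 2.00 against -0.66, -4.27 and -3.87. LTBP1, which tethers latent TGF-beta to the matrix, stood at 3.53, 3.95 and 3.31 against 1.25, 1.31 and 1.51. CHRD, another secreted BMP antagonist, fell, with a mean of -0.57 in the clone and 1.79 in the population, a log2 difference of -2.36 (limma adjusted p = 1.88e-04), so the antagonists did not move one way. The other member that fell was GDF15. Of 68 genes of a list of receptor tyrosine kinases and ligands 18 rose and 7 fell (36.8% called, median 0.50). Of these, 11 that rose and 4 that fell had a higher mean of at least log2 RPKM 1. The list also holds genes that are neither, such as IGFBP5, which rose, and IGFBP1 and IGFBP6, which fell. ERBB4, a receptor for neuregulins, stood at 4.82, 5.28 and 5.09 against 2.44, 2.58 and 1.68, a rise of 2.83 (SE 0.37, adjusted p = 1.08e-04), and its parental mean was 5.31. HBEGF, a ligand of EGFR and ERBB4, stood at 2.86, 3.05 and 2.82 against 1.76, 0.90 and 0.60. INSR, the insulin receptor, fell, from 2.94, 3.27 and 3.05 in the population to 1.23, 1.25 and 1.37 in the clone, a log2 difference of -1.81 (limma SE 0.17, adjusted p = 8.05e-06).

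**Figure D3:**
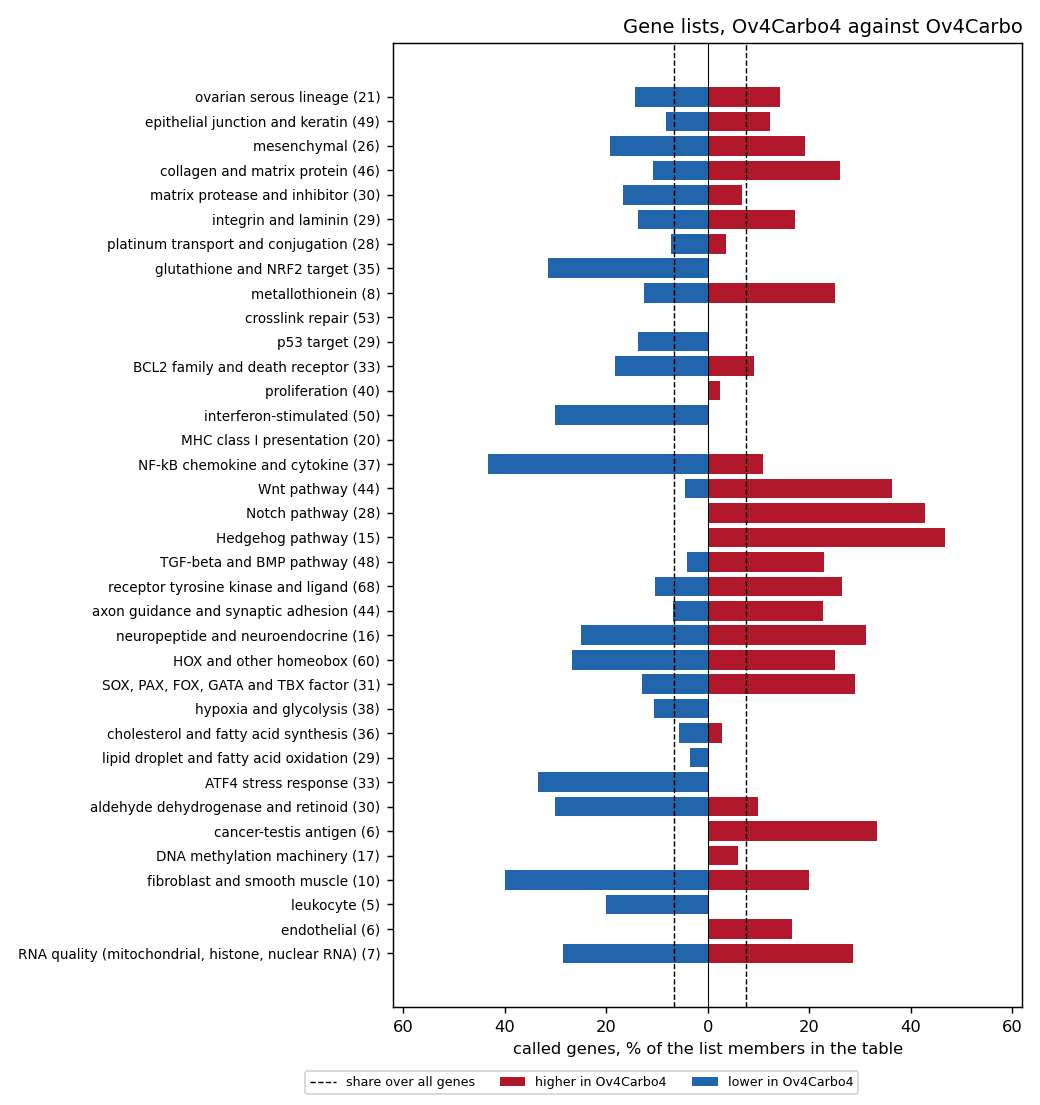
For each of 36 gene lists, with the number of members measured in brackets, the share of members higher (red, to the right) and lower (blue, to the left) in Ov4Carbo4, in percent. Dashed lines give the shares over all genes, 7.58% higher and 6.64% lower. The Notch, Hedgehog and Wnt bars reach far to the right, the NF-kB, interferon, ATF4 and glutathione bars to the left, and the crosslink repair and MHC class I lists have no bar.

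Homeobox genes changed in both directions, by cluster. HOX genes lie in 4 clusters, and their order along a cluster follows the body region in which they act. Of 60 HOX and other homeobox genes 15 rose and 16 fell (51.7% called, beside 14.2% of all genes). Of these, 7 that rose and 13 that fell had a higher mean of at least log2 RPKM 1. In the HOXB cluster on chromosome 17, 8 of 9 measured genes fell, HOXB2 to HOXB9, with a median log2 fold change of -1.71 over the 9. HOXB9 stood at 1.54, 1.60 and 1.67 in the clone and 5.33, 5.49 and 5.53 in the population, a log2 difference of -3.85 (limma SE 0.50, adjusted p = 1.02e-04). HOXB8 stood at 1.73, 1.61 and 2.01 against 4.48, 4.47 and 3.77, and HOXB2, at the other end of the called stretch, at 3.53, 3.53 and 3.79 against 4.82, 4.95 and 4.75. The change was thus largest at HOXB9 and smallest at HOXB2 (-1.22) among the 8. HOXB13, farther along the cluster, stood at 1.71, 1.67 and 1.50 against 1.82, 1.70 and 1.79 and was not called. Ov4Carbo7 was also low for HOXB9, with a mean of 0.61, while the parental mean was 5.57.

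In the HOXA cluster HOXA2 and HOXA3 fell. HOXA3 stood at 1.39, 1.36 and 1.27 in the clone and 2.50, 2.66 and 2.61 in the population, a log2 difference of -1.25 (limma SE 0.15, adjusted p = 4.71e-05), and HOXA2 had a log2 difference of -1.22. In the HOXC cluster 4 of 5 measured genes rose and in the HOXD cluster both, but no member of either reached a mean of log2 RPKM 1 in either line. Whether counting used strand is not given in the sources used here, so reads of HOX genes and of the antisense transcripts among them cannot be told apart. Outside the clusters DLX5, a homeobox factor of bone and placode development, stood at 4.45, 4.10 and 4.43 in the clone and 1.09, 1.76 and 1.56 in the population, a rise of 2.86 (SE 0.28, limma adjusted p = 1.42e-05). Its mean was -0.62 in Ov4Carbo7.

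**Figure D4:**
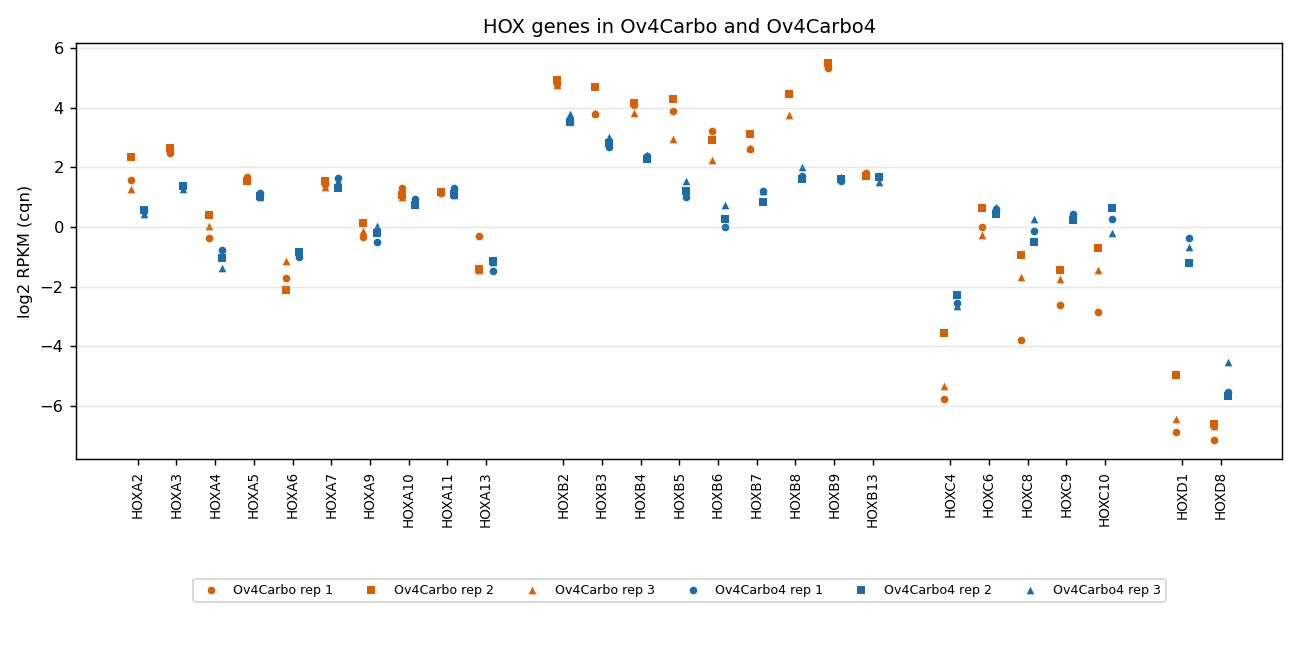
Log2 RPKM of measured HOX genes, by cluster and position, with 3 Ov4Carbo points (orange) and 3 Ov4Carbo4 points (blue) per gene. The blue points lie below the orange from HOXB2 to HOXB9 and at HOXA2 and HOXA3, overlap at HOXB13, and lie above them at HOXC8 to HOXC10 at levels under log2 RPKM 1.

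Other developmental and neural genes were mixed. Of 31 SOX, PAX, FOX, GATA and TBX factors and relatives 9 rose and 4 fell (41.9% called, beside 14.2% of all genes). Of these, 2 that rose and 3 that fell had a higher mean of at least log2 RPKM 1. NR2F2, a nuclear receptor of mesenchymal and venous fate, stood at 5.89, 6.06 and 6.05 against 4.69, 4.49 and 4.34, a rise of 1.49 (SE 0.15, limma adjusted p = 1.98e-05). FOXA1, a pioneer factor of epithelia, stood at -1.59, -1.58 and -1.44 against 1.57, 1.38 and 1.19, a log2 difference of -2.92 (limma SE 0.34, adjusted p = 4.32e-05). Of 44 genes of axon guidance and synaptic adhesion 10 rose and 3 fell (29.55% called). SEMA3C, a secreted semaphorin, was among those that rose, at 2.91, 2.28 and 2.59 against 0.52, -1.19 and -0.01. NCAM1, the neural cell adhesion molecule, stood at 4.22, 3.99 and 4.34 against 2.23, 1.70 and 1.13, with a parental mean of 4.29. Of 16 neuropeptide and neuroendocrine genes 5 rose and 4 fell. CALB1, a calcium buffer, rose from 5.19, 5.47 and 4.93 to 7.83, 7.92 and 7.69, while CHGA, the granule protein chromogranin A, fell from 1.36, 2.85 and 2.33 to -3.92, -3.83 and -3.45 beside SST. The members of that list therefore did not move as 1 group.

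Aldehyde dehydrogenase and retinoid genes did not move as 1 group. Of 30 aldehyde dehydrogenase and retinoid genes 9 fell, 3 rose and 18 were not called. DHRS3, which reduces retinaldehyde, stood at -2.49, -2.21 and -2.72 in the clone and 0.43, 2.78 and 2.41 in the population, a log2 difference of -4.34 (limma SE 0.71, adjusted p = 4.66e-04). Besides ALDH1A1, the genes ALDH1A2, ALDH1L2, ALDH2, ALDH3B1, RARB, RBP4 and RARRES2 fell, and of these ALDH1A2, RARB and RBP4 had means under log2 RPKM 1 in both lines. CRABP2, which carries retinoic acid to its receptors, rose, at 6.14, 5.84 and 5.87 against 3.55, 4.59 and 3.66. The list median was 0.05, and -0.15 without replicate 1, so the falls were those of particular members.

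Epithelial and serous genes changed in both directions. Of 49 epithelial junction and keratin genes 6 rose and 4 fell (median 0.31). With replicate 1 as the only population sample 10 rose and 4 fell (median 0.34), and without it 3 rose and 4 fell (median 0.08). The 4 that fell had population values of 2.92 or more, and the 6 that rose, among them the epithelial factors GRHL1, GRHL2 and OVOL2, had means under log2 RPKM 1 in both lines. CLDN1, a tight junction claudin, stood at 0.30, 0.43 and 0.31 in the clone and 4.09, 3.75 and 4.20 in the population, a log2 difference of -3.67 (limma SE 0.22, adjusted p = 3e-07), and the parental mean was 5.21. MAL2, PKP3 and KRT19 fell by 2.20, 1.81 and 1.33 on the log2 scale. Of 21 ovarian serous genes 3 rose and 3 fell (median -0.12). CRABP2, described above, KLK5 and BHLHE41 rose, the last 2 with means under log2 RPKM 1 in both lines. MSLN, the surface antigen mesothelin, stood at 0.46, 0.50 and 0.29 against 2.45, 2.54 and 3.13, and FOLR1, the folate receptor alpha, at -0.64, -0.36 and -1.29 against 1.87, 2.68 and 2.18. MUC1, a surface mucin, stood at 1.01, 1.25 and 1.02 against 2.63, 2.41 and 2.67. These 3 surface antigens were the members that fell, and PAX8 overlapped between the lines.

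Mesenchymal and matrix genes did not move together. Of 26 mesenchymal genes 5 rose and 5 fell, and of 46 collagen and matrix genes 12 rose and 5 fell. COL5A1, a fibril-regulating collagen chain, stood at 5.50, 5.27 and 5.43 in the clone and 2.84, 2.82 and 3.14 in the population, a rise of 2.47 (SE 0.35, limma adjusted p = 1.93e-04). EMILIN2, an elastic fibre glycoprotein, stood at 4.43, 3.38 and 4.42 against 2.57, 1.46 and 0.72. THBS1, the matrix protein thrombospondin, stood at 5.39, 4.89 and 5.33 against 4.18, 2.31 and 2.77, and against replicate 1 alone its log2 fold change of 1.03 had an adjusted p of 0.131. SPARC, a collagen-binding matricellular protein, stood at 7.11, 6.91 and 6.74 against 5.99, 5.46 and 5.95, a log2 fold change of 1.12 that was 0.951 without Ov4Carbo replicate 2. COL11A1 and VCAN, a large proteoglycan, were among the matrix genes that fell. VCAN had a log2 difference of -1.07, and of -0.76 without Ov4Carbo replicate 1, below the size required. LAMA2, a laminin chain, fell from 2.37, 2.02 and 1.94 to -0.95, -1.38 and -1.12, a log2 difference of -3.26 (limma SE 0.15, adjusted p = 3.76e-08). Of 30 matrix proteases and inhibitors 2 rose and 5 fell (23.3% called), and of 29 integrins and laminins 5 rose and 4 fell (31% called). Over all genes 14.2% were called.

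Of 40 proliferation genes limma called 1 (2.5%, beside 14.2% of all genes), MKI67, which marks cycling cells, at 7.36, 7.21 and 7.25 in the clone and 6.29, 6.21 and 6.16 in the population, a rise of 1.06 (SE 0.16, adjusted p = 2.47e-04). The median of that list was 0.36, above the 0.04 of all genes and below the size called. Against replicate 1 alone MKI67 was 0.99 higher and no member was called. Of 29 p53 targets 4 fell and none rose (13.8%, beside 6.64% lower over all genes), FAS, GADD45A, PHLDA3 and GDF15. The list median was -0.32, and -0.07 against replicate 1 alone. GDF15, a stress cytokine, stood at 4.46, 6.34 and 3.83 against 6.47, 7.34 and 7.97, with 1 clone sample close to the lowest population sample, and its call was lost against replicate 1 alone and when any 1 of 4 samples was left out (Ov4Carbo replicates 2 and 3, Ov4Carbo4 replicates 1 and 3). Of 33 BCL2 family and death receptor genes 3 rose and 6 fell (27.3% called). BMF, a BH3-only killer of the BCL2 family, rose from -3.37, -1.71 and -0.54 to 1.59, 1.44 and 1.45, and TNFSF10, the death ligand TRAIL, fell from 2.54, 3.07 and 2.40 to 0.46, 0.47 and 0.10.

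Of 38 genes of hypoxia and glycolysis 4 fell (10.5%, beside 14.2% called of all genes). Of these, NDRG1 (-0.71) and EGLN3 (-0.67) were below the size required without replicate 1 of Ov4Carbo. NDRG1 stood at 1.90, 1.79 and 1.86 in the clone and 5.52, 2.30 and 2.83 in the population. Of 36 genes of cholesterol and fatty acid synthesis 1 rose and 2 fell (8.33% called). SCD5, a fatty acid desaturase, rose from 1.51, 0.57 and 0.84 to 3.54, 3.43 and 3.59, and ELOVL6, a fatty acid elongase, stood at 1.96, 2.46 and 1.96 in the clone against 3.02, 3.90 and 3.70. Of 29 genes of lipid droplets and fatty acid oxidation 1 fell (3.45%), the droplet coat gene PLIN2, with means under log2 RPKM 1. Its log2 difference of -3.46 was -1.37 and no longer called without replicate 1. Of 17 genes of the DNA methylation machinery 1 rose (5.88%), TET3, which oxidises methylcytosine. The shares called in the hypoxia, cholesterol, lipid droplet and DNA methylation lists were all below the 14.2% of all genes, which include many at low levels. Over the 11994 ordered genes of mean log2 RPKM at least 1 the share was 8.16%, and the hypoxia and cholesterol shares were not below it. Of the hypoxia genes 35 of 38 had such a mean, and of the cholesterol genes 36 of 36. Transcripts that can move with RNA handling also differed: MALAT1, a nuclear RNA, stood at 6.80, 7.66 and 7.27 against 8.16, 9.22 and 8.43, and the histone gene H2BC12 at 4.60, 3.79 and 4.38 against 3.48, 3.68 and 2.04. Of the 7 measured members of that list 2 rose and 2 fell, and none was called against replicate 1 alone. Their part in the other results was not tested.

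Neighbouring genes moved together along parts of several chromosomes. Gene order was taken for 11994 genes with a mean of at least log2 RPKM 1, of which 979 were called (8.16%), 417 higher and 562 lower. The median log2 fold change was -0.32 on chromosome 3, -0.21 on 12, -0.20 on 11 and -0.15 on 6, and 0.34 on chromosome 9 and 0.25 on 14, against 0.01 over all of them. On chromosome 3, 12 genes were called higher and 89 lower, and on chromosome 9, 45 higher and 10 lower. In 11090 windows of 40 neighbouring genes the median difference between the lines ran from -0.95 to 0.65. Between replicates of Ov4Carbo4 it stayed between -0.14 and 0.16, and between replicates of Ov4Carbo between -0.32 and 0.40.

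Stretches were then marked where at least 40 windows in a row had a median beyond 0.3, a limit chosen after the values were seen. There were 11 lower stretches with 1048 genes, 8.74% of those ordered, which held 176 of the called lower genes (31.3%). There were 4 higher stretches with 555 genes (4.63%), which held 60 of the called higher genes (14.4%). The stretches were marked on the same fold changes as the calls, so these shares and the counts below are properties of the choice. On chromosome 3 the longest ran from NKIRAS1 to PSMD6, and 189 of its 222 genes were lower in the clone, 40 of them called. Its median was -0.61, -0.62 and -0.59 in the 3 clone samples against the population mean. On chromosome 6 the stretch from MDN1 to QKI had a median of -0.69, with 170 of 196 genes lower and 55 called. On chromosome 9 the stretch from NOL8 to MAN1B1 had a median of 0.53, with 246 of 277 genes higher and 38 called. On chromosome 14 the stretch from LRR1 to FOXN3 had a median of 0.44, with 156 of 191 genes higher and 16 called. Against replicate 1 of Ov4Carbo alone the 4 medians were -0.54, -0.72, 0.49 and 0.45, so each was also present within 1 title series.

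The stretches differed in which line departed from the parental line. On chromosome 3 the median against the parental mean was -0.53 in Ov4Carbo4, 0.06 in Ov4Carbo and -0.02 in Ov4Carbo7. On chromosome 6 it was -0.67 in Ov4Carbo4 and within 0.01 of 0 in the other lines, and on chromosome 9 it was 0.73, 0.13 and 0.09. Between ATG2A and PPME1 on chromosome 11 it was -0.59, 0.01 and 0.07. In these stretches Ov4Carbo4 was the line that lay away from the parental level. From SART3 to BRI3BP on chromosome 12 the order was another, with -0.23 in Ov4Carbo4, 0.22 in Ov4Carbo and -0.28 in Ov4Carbo7, so the clones were alike and the population stood higher. On chromosome 14 the values were 0.17, -0.30 and -0.41. Copy number was not measured here, and its part in these stretches was not tested.

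**Figure D5:**
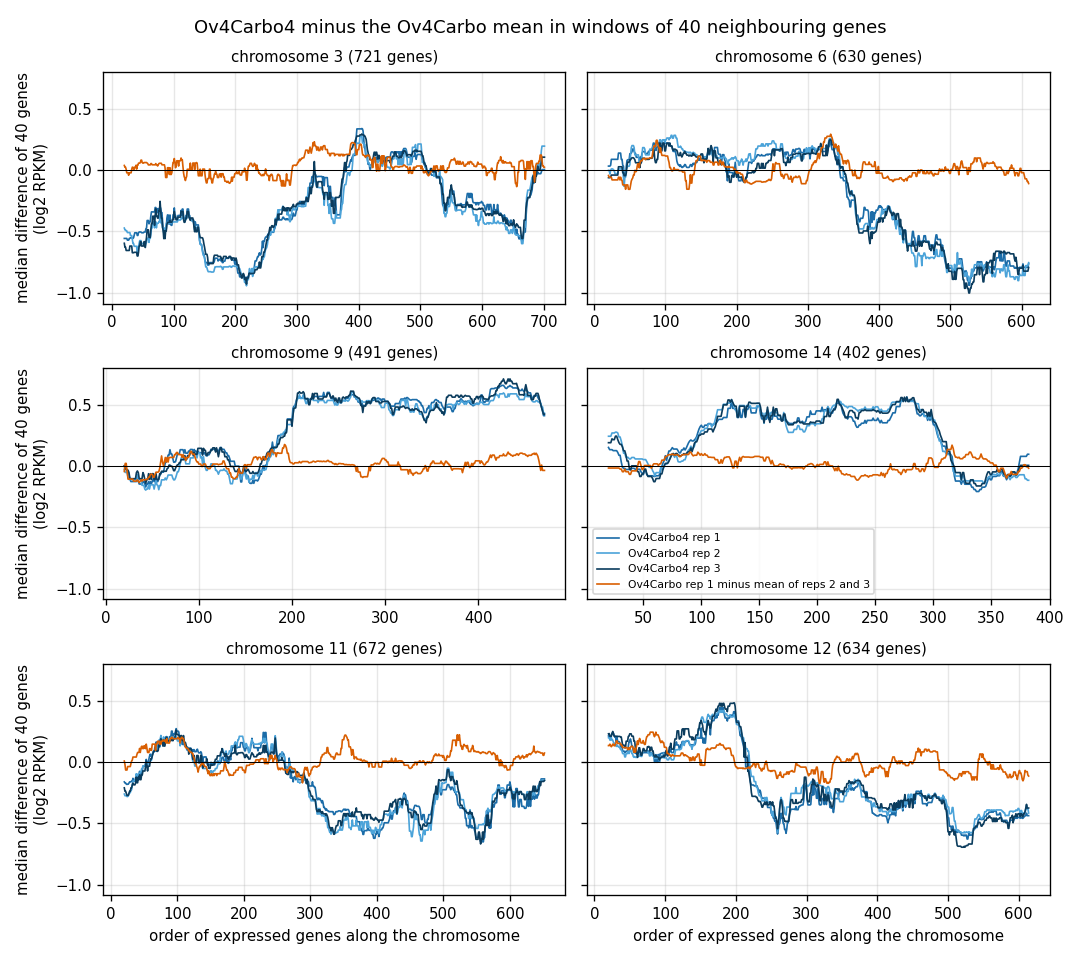
Median difference from the Ov4Carbo mean (log2 RPKM) in windows of 40 neighbouring expressed genes, in gene order along 6 chromosomes, with 1 blue line per Ov4Carbo4 replicate and, in orange, Ov4Carbo replicate 1 minus the mean of replicates 2 and 3. The 3 blue lines run together, down to about 1 log2 unit below 0 on chromosomes 3 and 6 and about 0.5 above 0 over the later genes of chromosome 9, while the orange line stays nearer 0.

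Several genes named above lie in these stretches. GPX1 is in the chromosome 3 stretch together with RHOA, a GTPase of the actin cytoskeleton, which had a mean of 4.75 ± 0.05 in the clone and 6.26 ± 0.17 in the population (SD, n = 3 each), a log2 difference of -1.51 (limma SE 0.10, adjusted p = 4.5e-07). NDUFAF3, an assembly factor of respiratory complex I in the same stretch, had 3.16 ± 0.09 and 5.73 ± 0.34, a log2 difference of -2.57 (limma SE 0.15, adjusted p = 2.81e-07). On chromosome 6, CITED2, a transcriptional co-regulator, had 2.78 ± 0.06 and 4.52 ± 0.52, and EZR, the membrane-cytoskeleton linker ezrin, had 5.06 ± 0.08 and 6.39 ± 0.34. The chromosome 9 stretch held COL5A1, PTCH1 and WNK2, a kinase that regulates ion transport, at 4.37 ± 0.04 and 2.89 ± 0.16. On chromosome 14, STON2, an endocytic adaptor, had 4.63 ± 0.06 and 2.99 ± 0.44.

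Ov4Carbo7, the other line from a single cell of the same population, was used to ask which of these changes differed between clones. Ov4Carbo4 and Ov4Carbo7 differed in 3478 called genes of 16604 (20.9%), 1637 higher and 1841 lower in Ov4Carbo4. This comparison uses the same Ov4Carbo4 samples as the one above. On the NF-kB list (37 genes) 3 were higher and 23 lower in Ov4Carbo4 than in Ov4Carbo7, and on the interferon-stimulated list (50) 0 and 24. The counts were 0 and 16 on the glutathione and NRF2 list (35), 13 and 0 on the Notch list (28), and 0 and 22 on the hypoxia list (38). Against Ov4Carbo only 4 of the 38 hypoxia genes were called, so most of those 22 were not among the changes described above. CXCL8 had a mean of -1.03 in Ov4Carbo4 and 5.75 in Ov4Carbo7, a log2 difference of -6.78 (limma adjusted p = 3.02e-09). PTPRM had 0.79 and 6.82, a difference of -6.03 (adjusted p = 1.21e-12). HOXB9, which was low in both clones, had 1.60 and 0.61, a difference of 0.99 (adjusted p = 0.119), so the clones were not separated by it. F2R had 4.62 and 3.63, a difference of 1.00 (adjusted p = 9.55e-04), and CHST2 differed by 1.63 (adjusted p = 8.63e-04), with both clones above the population mean.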

How the data were processed

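Polyadenylated RNA of 15 cultured samples (5 lines, 3 replicates each) was sequenced, and the 6 samples of Ov4Carbo4 and Ov4Carbo are the subject here. The authors deposited log2 RPKM values after conditional quantile normalization, per the table's name, and a threshold that this name mentions is not explained in the sources used here. The submitters' processing notes name BWA 0.7.15-r1140, HTSeq, hg19 and GRCh37 without roles. Whether counting used strand is not given in the sources used here. The table holds 16604 genes with 0 missing values, and 0 sample pairs were identical. As the values are quantile normalized, differences in total RNA between lines are not measurable.

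Columns were matched to samples by the number in the title, and groups come from the labels. A linear model with 1 coefficient per line was fitted to all genes and 15 samples with limma 3.58.1 in R 4.3.3 (two-sided), with Benjamini-Hochberg adjustment across the whole table. A call needed a difference of 1 log2 unit or more in size and an adjusted p under 0.05. GENCODE v29 (GRCh38) gave chromosome names and gene order only, for 16499 genes, and 15585 had a symbol. Promoters came from RefSeq (GRCh38.p14). Named genes were called, did not overlap between the lines and had a higher mean of at least log2 RPKM 1. The 12 with the largest difference in log2(RPKM + 1) in each direction and up to 4 per list were taken, with 2 members for a list that had none, and up to 5 per window. The comparison, the 36 gene lists and the rule were chosen with earlier results of these data known, and lists are described by counts and medians without a test. Alternatives were other scalings and filters, a variance trend, sample weights, blocking on the replicate number, title series as a model term, fewer groups, an adjusted p under 0.01 and leaving out each replicate. In data simulated for this comparison over 16604 genes, 188 of 200 genes changed by 2 log2 units were recovered, with 5 false calls. Recovery and false calls under the wider spread of the Ov4Carbo replicates, or under a difference between title series, was not tested. Python 3.11.15 with pandas 2.3.3 and matplotlib 3.10.9 served for tables and plots. A few items are not reported here.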

Additional observations from a re-analysis of the deposited data

Results flagged for a closer look

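For 22 of the named genes Ov4Carbo4 and Ov4Carbo7 moved in opposite directions from Ov4Carbo, and the limma test of the difference between the clones passed. Both changes are taken from the same Ov4Carbo samples, and the named genes were chosen for large changes. The values below are log2 differences, Ov4Carbo4 minus Ov4Carbo7. Among genes of inflammation and the acute phase, CXCL8 had -6.78, CP -6.4, C3 -4.9 and BIRC3 -4.46. Of the genes of redox and one-carbon metabolism, MGST1 had -5.39, SLC7A11 -4.27 and NNMT -6.34. Genes of the hypoxia list were lower in Ov4Carbo4 and higher in Ov4Carbo7, with NDRG1 at -6.02, EGLN3 at -3.61, BNIP3 at -2.6 and LOX, a collagen crosslinking enzyme, at -3.9. The death receptor FAS had -2.96, the insulin receptor INSR -2.9 and the protease inhibitor SERPINE2 -4.68.

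In the other direction, higher in Ov4Carbo4 and lower in Ov4Carbo7, FAT3 had 6.1, COL5A1 5.81, DLX5 4.95, NES 4.31 and CRABP2 3.27. ADAM19, a membrane metalloprotease, had 3, SLIT3, a secreted guidance cue, 2.81 and TBX2, a T-box repressor, 2.2. For NDRG1, the population replicates were 5.52, 2.30 and 2.83 and the Ov4Carbo7 mean was 7.87, so the change in Ov4Carbo4 depends on replicate 1 and the difference between the clones does not use it. Groups of 3 samples were too small for a test of single outlying samples.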

How the results depend on the processing

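The 2360 called genes became 905 on the log2(RPKM + 1) scale (424 higher, 481 lower) and 996 with only genes of mean log2 RPKM at least 1 (429 higher, 567 lower), where 43.1% were higher in place of 53.3%. Against Ov4Carbo7 the 3478 became 1746 (769 higher, 977 lower) and 1645 (729 higher, 916 lower). Leaving out single replicates gave 2112 to 2695 against Ov4Carbo, the highest without Ov4Carbo replicate 1, with 1111 to 1413 higher and 1001 to 1282 lower, and 3303 to 3483 against Ov4Carbo7. Adding the title series to the model gave 2271, of which 1575 were shared, and the first title series alone 2496, of which 1690 were shared. Same-numbered samples of the 2 lines correlated by 0.19, 0.018 and -0.21, so the numbers do not pair them, and a replicate block gave 2296 and 3444. None of the 108 called named genes changed sign under the settings run, of which the filter on mean log2 RPKM kept 87 of them. Adding the title series ended 22 of these calls, the first series alone 17, an adjusted p under 0.01 15 and the fit of only the groups compared 11, and leaving out a replicate 3 to 10. Besides those named with the results, PDGFB, NOTUM, ALDH1L2, TGFBI and ADAM19 lost their call without at least 1 replicate. List medians moved most with the first title series alone and with title series in the model, where 20 of 36 moved beyond their spread in each. Depth is unknown, and fold changes of genes near the floor are large and uncertain in size.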
